A study of Homo sapiens with 6 samples.

Results

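The comparison described here is of A549 cells that carry the shCBX8-1 hairpin with A549 cells that carry a control construct. It takes 4 of the 6 libraries of the study, 2 from each group, chosen by the sample titles and described across all genes. A549 is an established human lung adenocarcinoma line of epithelial origin, and both groups are stable lines made from it by infection with a lentivirus, one expressing a control and the other a short hairpin RNA (shRNA) directed at CBX8. The 2 remaining libraries, titled as a second shCBX8 hairpin, enter only where the hairpins are set against each other. The first number in the shCBX8 titles was read as the hairpin and the second as the replicate, which the labels do not spell out. Hairpin sequences, the choice between pooled and clonal lines, and whether replicates were separate cultures are not stated in the labels, so every p-value rests on how far samples of 1 group lie apart, and that spread may be technical.

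RNA sequencing gave between 64197784 and 65515050 estimated counts in each of these 4 libraries, and between 18419 and 18788 genes were above 0 per library. Levels are counts scaled by TMM, the trimmed mean of M values, to a common library total (CPM), always in the order replicate 1 and replicate 2, with n = 2 libraries per group. Levels of different genes are not corrected for transcript length and are not compared with each other. Fold changes are log2 fold changes, shCBX8-1 minus control, with their standard error (SE). A gene is said to have risen or fallen when its adjusted p in edgeR's quasi-likelihood test was under 0.05. Estimates per transcript can divide the reads of overlapping genes, and genes for which this matters are pointed out.

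CBX8 is a chromobox protein of canonical Polycomb repressive complex 1 (PRC1). The chromodomain of a CBX subunit binds histone H3 carrying the methyl mark that Polycomb repressive complex 2 (PRC2) lays down, while the RING1 or RNF2 subunit, paired with a PCGF protein such as BMI1, ubiquitinates histone H2A. Polycomb complexes are best known for holding developmental genes and the INK4 cell cycle inhibitors silent, often at promoters rich in CG dinucleotides.

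CBX8 itself, at chr17:79792132-79797077 in the RefSeq annotation of GRCh38.p14, was at 25.1 and 26.8 CPM in control and 7.95 and 7.86 CPM in shCBX8-1. Both shCBX8-1 libraries lay far below both control libraries, a fall of 1.71 on the log2 scale (SE 0.11, adjusted p = 8.07e-05). CDKN2C, at chr1:50960745-50974634, encodes the INK4 inhibitor p18 that binds CDK4 and CDK6 and is one of the genes named in the title of the study. Its level was 21.8 and 20.9 CPM in control and 38.2 and 39.4 CPM in shCBX8-1, without overlap, a log2 fold change of 0.86 ± 0.08 (adjusted p = 0.000354). SCEL, the other gene of the title, encodes sciellin, a precursor of the cornified envelope of stratified epithelia. It was at 7.08 and 7.898 CPM in control and 15.8 and 20.3 CPM in shCBX8-1, so that both knockdown libraries again lay above both controls (1.27 ± 0.15, adjusted p = 0.00128). These genes passed the test with each library left out in turn and in the fit of all 6 libraries. The plot of levels in the 4 libraries shows them beside 9 other genes.

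**Figure D1:**
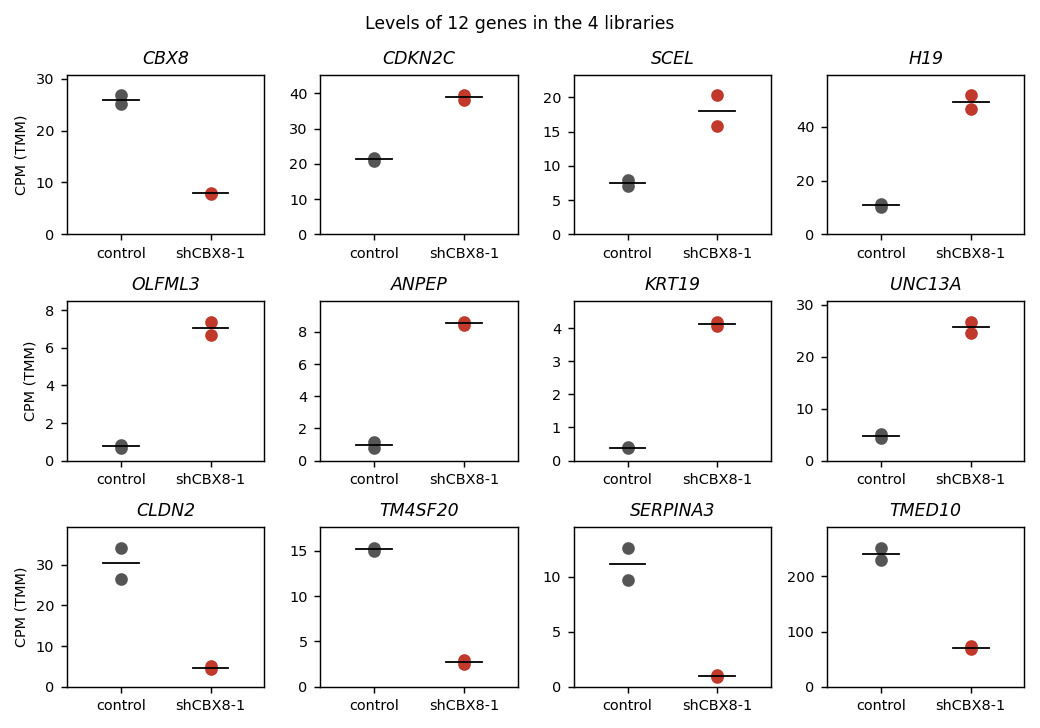
Levels in CPM (vertical axes, linear, starting at 0, each panel on its own scale) of 12 genes in the 2 control and 2 shCBX8-1 libraries. Each point is 1 library and each bar is the group mean; CBX8 lies at 25.1 and 26.8 CPM in control and at 7.95 and 7.86 CPM in shCBX8-1, and groups do not overlap in any panel.

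The promoters of 4 genes are printed to show how far genes that moved differ in CG content, the feature for which Polycomb targets are known. They are the genes of the title and, chosen after their values were seen, H19 and CLDN2, which are among those that moved most at a mean level above 10 CPM. Each sequence runs 5′ to 3′ on the strand of the gene from 250 bases before to 50 bases after the RefSeq start (GRCh38.p14), and capitals mark each CG, a motif that reads the same on both strands.
CDKN2C, chr1:50960495-50960794, + strand: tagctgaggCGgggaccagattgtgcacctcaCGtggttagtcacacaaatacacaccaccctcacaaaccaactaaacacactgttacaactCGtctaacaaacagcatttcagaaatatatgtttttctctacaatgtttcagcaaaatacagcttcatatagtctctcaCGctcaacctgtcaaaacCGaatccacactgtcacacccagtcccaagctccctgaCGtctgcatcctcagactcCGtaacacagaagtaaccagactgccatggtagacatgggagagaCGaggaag
SCEL, chr13:77535456-77535755, + strand: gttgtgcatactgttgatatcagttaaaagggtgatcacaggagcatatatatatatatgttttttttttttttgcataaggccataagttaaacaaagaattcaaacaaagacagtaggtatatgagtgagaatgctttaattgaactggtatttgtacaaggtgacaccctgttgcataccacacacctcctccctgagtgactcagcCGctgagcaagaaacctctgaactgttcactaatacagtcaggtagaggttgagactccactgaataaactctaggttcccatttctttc
H19, chr11:2001217-2001516, - strand: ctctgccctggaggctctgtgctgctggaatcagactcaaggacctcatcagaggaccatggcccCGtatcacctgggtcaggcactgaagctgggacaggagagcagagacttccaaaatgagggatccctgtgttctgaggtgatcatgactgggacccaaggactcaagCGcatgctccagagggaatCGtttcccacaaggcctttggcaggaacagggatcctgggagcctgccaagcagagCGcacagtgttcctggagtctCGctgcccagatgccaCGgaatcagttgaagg
CLDN2, chrX:106899914-106900213, + strand: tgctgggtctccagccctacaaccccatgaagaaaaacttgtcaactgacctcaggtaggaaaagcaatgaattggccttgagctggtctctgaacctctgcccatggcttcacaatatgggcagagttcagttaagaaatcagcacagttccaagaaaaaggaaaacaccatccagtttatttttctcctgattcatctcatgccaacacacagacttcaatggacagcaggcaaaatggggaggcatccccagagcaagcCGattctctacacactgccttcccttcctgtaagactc
The CDKN2C window holds 8 CG, and 60.1% of 27305 RefSeq promoters of that length hold at least as many. The SCEL and CLDN2 windows hold 1 CG each, which 95.8% of promoters reach, and the H19 window holds 6, which 65.6% reach. These 27305 promoters are not limited to genes tested here. Among the tested protein-coding genes counted below, only 14.6% of promoters hold fewer than 10 CG. Beside those, the CDKN2C and H19 windows are low as well, although H19 is not protein-coding. Only 1 annotated start per gene was used, here and in the counts below. Which start is in use in these cells was not tested, and windows at other starts of a gene may differ.

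Across protein-coding genes outside chromosome 8, a promoter was at hand for 84.3% of those tested. The median number of CG was 26 in all of these, 28 in those that rose and 26 in those that fell. Fewer than 10 CG were found in 14.6% of all 11648 promoters and in 14.5% of those of genes that rose. Among the 91 genes that rose at least 2-fold the share was 37.4%, and at a mean of at least 10 CPM it was 35.7% of 28 genes against 7.94% of 8066. Genes that rose at least 2-fold were low in level, with a median of 5.97 CPM against 24.99 CPM in all, and what that contributes was not tested beyond the cut at 10 CPM. For genes that fell at least 2-fold the check is void, because only 76.2% of the 168 had a promoter in the reference table. Of the 128 that had one, 41.4% held fewer than 10 CG, and of the 29 of these at a mean of at least 10 CPM 41.4% did. A low count was therefore not shown to be particular to genes that rose.

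Of 16791 genes tested, 2426 (14.4%) passed, with 1332 that rose (7.93%) and 1094 that fell (6.52%). The median log2 fold change of all genes was -0.0074. Changes were mostly small: 676 of the genes that passed changed by less than 1.25-fold and 956 by 1.25-fold to 1.5-fold. Increases prevailed among small changes (457 up and 219 down under 1.25-fold) and decreases among large ones (89 up and 145 down between 2-fold and 4-fold, 41 up and 61 down beyond 4-fold). At least 2-fold changes were found in 130 genes that rose (0.774%) and 206 that fell (1.23%). When genes were cut into 5 equal bins by level, in the highest bin 588 rose (17.5%) and 243 fell (7.24%), while in the lowest bin 26 rose and 48 fell.

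The number of calls depended on the libraries used. It was 1436 without control replicate 1, 1192 without control replicate 2 and 1343 or 1364 when replicate 1 or 2 of shCBX8-1 was left out, and 799 genes passed in all of these fits. It fell to 939 with no filter on low counts and to 423 in the fit of all 6 libraries. Replicates of control differed by a median of 0.13 on the log2 scale and those of shCBX8-1 by 0.13, while the group means differed by 0.20. The replicate values compare single libraries and the last compares means of 2 libraries, which vary less, so they are not like for like. Libraries of the groups did not overlap in 57.9% of all genes tested. The same held for all 122 described genes that passed, but these were chosen on the same 4 libraries. Their lack of overlap therefore follows largely from the choice. Apart from genes given as not having passed, and from CDKN1B, CDKN3 and CD14, genes are described with values only where the call stood without any 1 library.

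**Figure D2:**
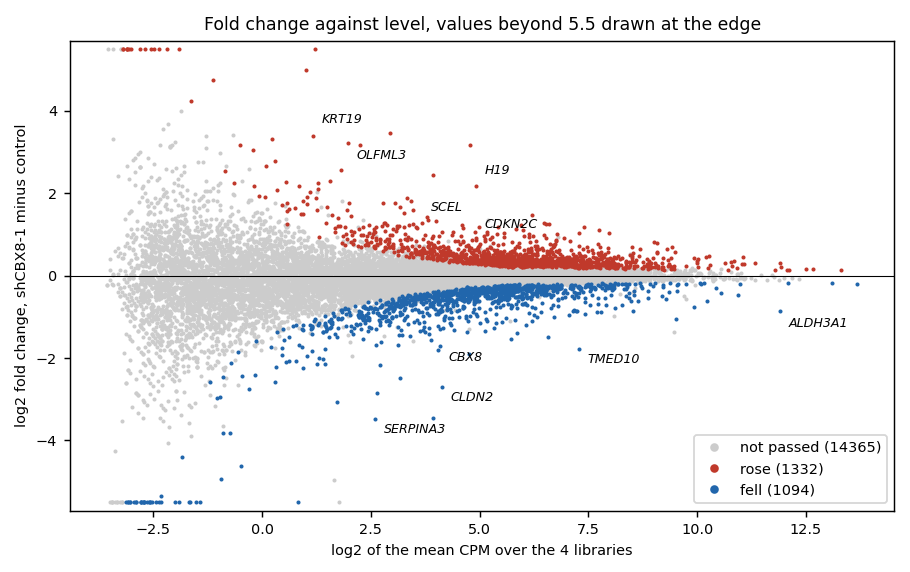
Log2 fold change, shCBX8-1 minus control (vertical axis), against the log2 of the mean level in CPM over the 4 libraries (horizontal axis), 1 point per gene tested, with values beyond 5.5 drawn at the edge. The 1332 genes that rose are red, the 1094 that fell are blue, and the 14365 that did not pass are grey; at high levels most coloured points lie within 1 log2 unit of 0.

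**Figure D3:**
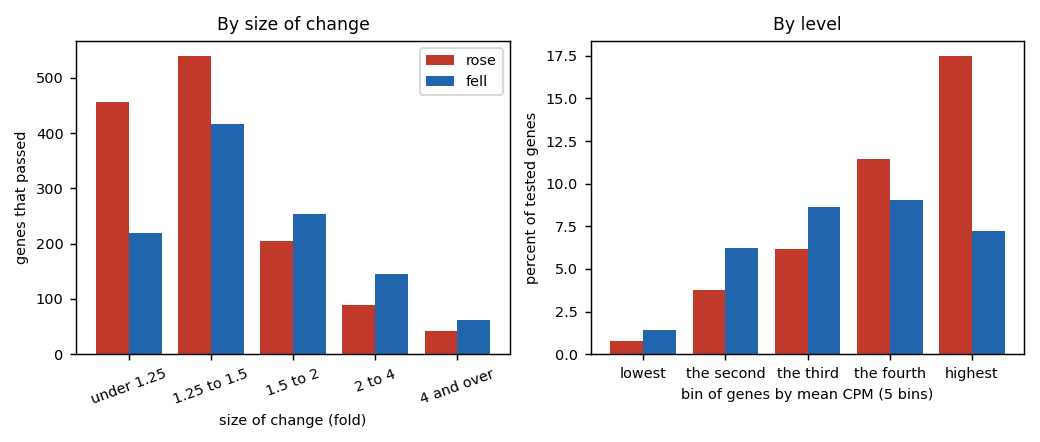
Left, the number of genes that rose or fell by size of change; right, the percent of tested genes that rose or fell in 5 equal bins of genes ordered by mean CPM. Increases outnumber decreases under 1.5-fold and in the highest bin (17.5% against 7.24%), and decreases outnumber increases from 1.5-fold upward.

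Among the largest increases were genes of varied function. KRT19, a keratin of simple epithelia, was at 0.415 and 0.366 CPM in control and 4.19 and 4.05 CPM in shCBX8-1 (3.39 ± 0.31, adjusted p = 0.000354). OLFML3, a secreted olfactomedin-domain glycoprotein, rose from 0.6604 and 0.839 to 7.402 and 6.699 CPM (3.23 ± 0.25, adjusted p = 0.000162). ANPEP, the membrane aminopeptidase CD13, rose from 1.14 and 0.762 to 8.44 and 8.65 CPM (3.17 ± 0.25, adjusted p = 0.000173). MUC16, the transmembrane mucin that carries the CA-125 epitope, stood at 0.952 and 1.05 CPM in control and 6.04 and 5.92 CPM in shCBX8-1 (2.58 ± 0.24, adjusted p = 0.000362). UNC13A, a synaptic vesicle priming factor, was at 4.38 and 5.11 CPM in control and 26.7 and 24.5 CPM in shCBX8-1 (2.43 ± 0.13, adjusted p = 4.69e-05). INSYN2B (0.799 and 1.22 to 5.07 and 4.78 CPM) and LY6K, a GPI-anchored protein of the Ly6 family (0.753 and 0.945 to 4.04 and 3.98 CPM), rose by a log2 fold change of 2.28 ± 0.29 and 2.24 ± 0.29. In each of these genes the replicates of a group lay close together compared with the gap between groups.

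Among genes with a mean of at least 50 CPM, where sampling error is small, the lowest p among increases belonged to SUSD2, ITGB4, ACLY, SKA2 and UPK3B. SUSD2, a sushi-domain membrane protein, went from 38.3 and 40.2 to 108 and 109 CPM (1.47 ± 0.06, adjusted p = 1.68e-05). SKA2, a subunit of the kinetochore complex that couples chromosomes to spindle microtubules, went from 35.7 and 35.7 to 77.4 and 80.3 CPM (1.14 ± 0.06, adjusted p = 4.31e-05). UPK3B, a uroplakin family membrane protein, was at 98.4 and 104 CPM in control and 212 and 204 CPM in shCBX8-1 (1.04 ± 0.06, adjusted p = 6.39e-05); accessions marked as repeated held 43.1% of its counts. The 5 decreases with the lowest p were in TMED10, PMEPA1, UHMK1, MMP7 and ALDH3A1. TMED10, a cargo receptor of vesicles between the endoplasmic reticulum and the Golgi, fell from 230.5 and 252 to 68.2 and 73.2 CPM (-1.77 ± 0.07, adjusted p = 1.68e-05). UHMK1, a kinase with a U2AF homology motif, was at 84.4 and 82.8 CPM in control and 30.3 and 33.5 CPM in shCBX8-1 (-1.39 ± 0.07, adjusted p = 3.39e-05), a call that ended in the fit of all 6 libraries (adjusted p = 0.164).

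The largest decreases were likewise in genes of several kinds. SERPINA3, the acute-phase protease inhibitor antichymotrypsin, was at 9.71 and 12.6 CPM in control and 1.08 and 0.928 CPM in shCBX8-1 (-3.47 ± 0.22, adjusted p = 8.07e-05). FGL1, a fibrinogen-like secreted protein, fell from 3.901 and 7.84 to 0.767 and 0.634 CPM (-3.06 ± 0.37, adjusted p = 0.00136). MAPK4, an atypical MAP kinase, fell from 10.9 and 10.96 to 1.24 and 1.79 CPM (-2.85 ± 0.22, adjusted p = 0.000163). CLDN2, a claudin that makes tight junctions permeable to cations, was at 26.6 and 34.2 CPM in control and 4.397 and 4.997 CPM in shCBX8-1 (-2.69 ± 0.15, adjusted p = 5.88e-05). TM4SF20, a tetraspan protein of the gut, was at 15.3 and 15 CPM in control and 2.504 and 2.91 CPM in shCBX8-1 (-2.49 ± 0.15, adjusted p = 8.07e-05). BDKRB2, the bradykinin B2 receptor, fell from 3.92 and 3.95 to 0.845 and 0.944 CPM (-2.13 ± 0.28), and the tetraspanin TSPAN18 from 3.78 and 4.696 to 1.02 and 1.05 CPM (-2.03 ± 0.27). JPH3, a junctophilin, was at 9.05 and 12.3 CPM in control and 3.44 and 1.28 CPM in shCBX8-1 (-2.17 ± 0.39, adjusted p = 0.00782), with a wide gap between the knockdown replicates. Its call ended with no filter on low counts (adjusted p = 0.0833) and in the fit of all 6 libraries (adjusted p = 0.0633).

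Of 30 PRC1 subunits and accessory factors, 2 rose, 2 fell and 26 did not pass, a share of 13.3% called beside 14.4% of all genes, and the median log2 fold change was 0.04. The decreases were CBX8 and BMI1, and SCML1, an SCM-type Polycomb protein, rose from 23.1 and 25.02 to 36.5 and 38.1 CPM (0.64 ± 0.08, adjusted p = 0.00179), though not in the fit of all 6 libraries (adjusted p = 0.516). CBX2, CBX6 and CBX7, which can take the place of CBX8 in PRC1, did not pass. CBX2 was at 52.7 and 59.05 CPM in control and 59.3 and 60.1 CPM in shCBX8-1 (0.1 ± 0.07, adjusted p = 0.42), without overlap. CBX6 (-0.01 ± 0.06, adjusted p = 0.958) and CBX7 (-0.16 ± 0.15, adjusted p = 0.535) overlapped between groups. Of the E3 ligase subunits, RNF2 had a log2 fold change of -0.13 ± 0.09 (adjusted p = 0.38) and RING1 of 0.04 ± 0.09 (adjusted p = 0.854). Repeated accessions held 76.1% of the RING1 counts, and without them its log2 fold change was 1.02 (adjusted p = 0.0108), so its value is uncertain.

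BMI1, the PCGF subunit of canonical PRC1, was at 58.5 and 41.9 CPM in control and 23.02 and 16.5 CPM in shCBX8-1 (-1.35 ± 0.18, adjusted p = 0.00217). The readthrough gene COMMD3-BMI1, whose transcripts share the BMI1 exons, ran the other way, at 1.58 and 9.47 CPM in control and 45.3 and 53.9 CPM in shCBX8-1 (3.16 ± 0.55, adjusted p = 0.00705). The sum of both was 60.1 and 51.4 CPM in control and 68.3 and 70.4 CPM in shCBX8-1, a ratio of 1.24. With COMMD3 also added the ratio was 1.14. The fall of BMI1 alone is therefore uncertain, since reads in shared exons cannot be told apart. The same limit holds for 4 other genes among the largest folds. ARPC4-TTLL3 was at 0.0614 and 0 CPM in control and 6.48 and 2.75 CPM in shCBX8-1, while the TTLL3 plus ARPC4-TTLL3 sum was 20.7 and 23.1 against 16.8 and 16.9 CPM. With ARPC4 also added the sum was 159.4 and 152.5 against 157.6 and 170.0 CPM. TPTEP2-CSNK1E rose (3.46 ± 0.51) with a sum over its CSNK1E partner that changed by a ratio of 1.11, and BLOC1S5-TXNDC5 fell (-3.46 ± 0.50) with a sum over TXNDC5 that changed by a ratio of 1.07. SGK3 went from 5.99 and 1.13 CPM to 0 in both shCBX8-1 libraries, and its sum with C8orf44-SGK3 was 5.99 and 6.74 against 7.68 and 6.59 CPM. FAM156A (4.98 ± 0.47) has the near-identical copy FAM156B, and their sum changed by a ratio of 1.04. The calls of COMMD3-BMI1, TPTEP2-CSNK1E and BLOC1S5-TXNDC5 ended in the fit of all 6 libraries (adjusted p = 0.335, 0.116 and 0.218), and these and SGK3 did not pass with no filter on low counts (adjusted p from 0.0614 to 0.0886).

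**Figure D4:**
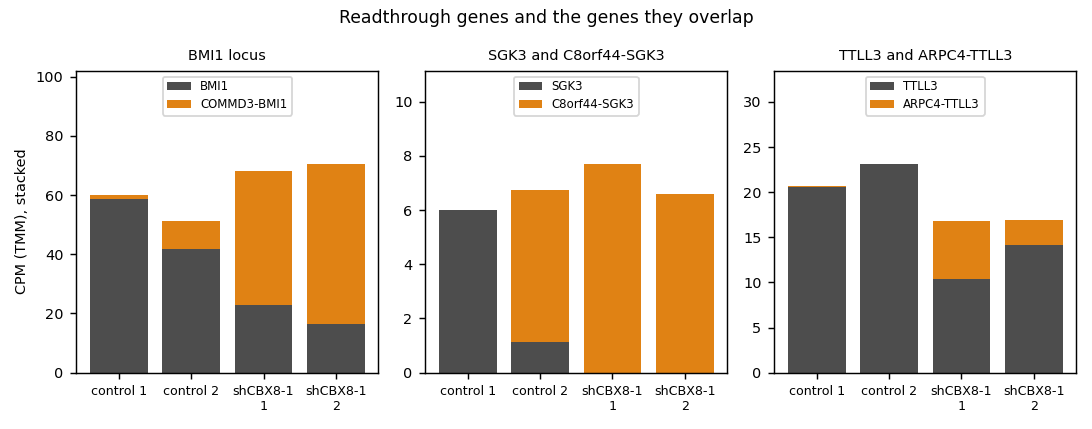
Levels in CPM (vertical axes, starting at 0) of 3 readthrough genes (orange) stacked on the genes they overlap (grey) in each of the 4 libraries. BMI1 and COMMD3-BMI1 move in opposite directions while their sum stays between 51.4 and 70.4 CPM.

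Of 16 PRC2 subunits and partners, 2 rose, 1 fell and 13 did not pass, with a median log2 fold change of 0.02. EZH2, the methyltransferase of PRC2 that is highest in dividing cells, was at 44.3 and 48.2 CPM in control and 69.4 and 64.7 CPM in shCBX8-1 (0.54 ± 0.07, adjusted p = 0.00179). PHF19, the Polycomb-like accessory factor, rose from 60.9 and 61.8 to 93.9 and 97.4 CPM (0.64 ± 0.06, adjusted p = 0.000452). The paralogue EZH1 was at 26.1 and 30.9 CPM in control and 25.4 and 20.3 CPM in shCBX8-1 and did not pass (-0.32 ± 0.13, adjusted p = 0.135).

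CDK inhibitors bind cyclin-dependent kinases and hold back the cycle. Of the 8 on the list, CDKN2A and CDKN2B, the INK4 genes that adjoin each other on chromosome 9, had 0 counts in all 4 libraries. Why they were at 0, by silencing or by lack of the genes in this line, was not tested. The other 6 were tested, with a median log2 fold change of 0.31 and 4 that rose. Beside CDKN2C, CDKN1A, the p53 target that encodes p21, rose from 614 and 603 to 709 and 719 CPM (0.23 ± 0.04, adjusted p = 0.00717), which did not pass in the fit of all 6 libraries (adjusted p = 0.155). CDKN1B was at 18.2 and 22.4 CPM in control and 28.8 and 28.7 CPM in shCBX8-1 (0.5 ± 0.11, adjusted p = 0.0188) and CDKN3, a phosphatase of CDKs, at 83.2 and 75.97 CPM in control and 96.3 and 107 CPM in shCBX8-1 (0.36 ± 0.08, adjusted p = 0.0181). Neither call is firm: CDKN1B did not pass without control replicate 1 (adjusted p = 0.0674), shCBX8-1 replicate 1 (0.0712) or shCBX8-1 replicate 2 (0.0844), and CDKN3 did not without control replicate 2 (0.104) or shCBX8-1 replicate 2 (0.0856). CDKN2D (0.26 ± 0.17, adjusted p = 0.352) and the low CDKN1C (-1.02 ± 0.79, adjusted p = 0.453) did not pass.

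Genes of mitosis made up the list with the largest number of increases. Counts of lists stand beside 7.93% of all genes that rose and 6.52% that fell, with 17.5% and 7.24% in the highest of the 5 level bins. Unless stated otherwise, the number of genes given for a list is the number tested, and untested members are left out. Lists of cell type markers are given whole. The mitosis list, which includes G2, had 72 genes tested, of which 37 rose (51.4%), 0 fell and 35 did not pass, with a median log2 fold change of 0.27 beside -0.0074 over all genes. The increases ranged from 0.20 to 0.71, and 20 of them stood without any 1 library. KIF20A, a kinesin of the central spindle, rose from 59.97 and 62.1 to 97.8 and 102 CPM (0.71 ± 0.06, adjusted p = 0.000324). ANLN, the anillin scaffold of the cleavage furrow, rose from 143 and 142 to 210.0 and 219.7 CPM (0.59 ± 0.06, adjusted p = 0.000409), and DLGAP5, a spindle assembly factor, from 59.2 and 51.5 to 80.3 and 83.99 CPM (0.57 ± 0.08, adjusted p = 0.00237). Of 60 genes of S phase and replication, 23 rose (38.3%), 0 fell and 37 did not pass, with a median of 0.19, but only 4 stood without any 1 library. Medians of the other lists are given in parentheses on the same log2 scale. Thymidine kinase TK1 was at 198 and 198 CPM in control and 285 and 301 CPM in shCBX8-1 (0.57 ± 0.05, adjusted p = 0.000432), and the DNA ligase LIG1 at 82.4 and 85.03 CPM in control and 109 and 111 CPM in shCBX8-1 (0.4 ± 0.06, adjusted p = 0.00377). Of the 41 replication-dependent histone genes tested, 5 rose and 0 fell (median 0.29), among them H2AC6, from 10.04 and 11.6 to 19.4 and 17.8 CPM (0.78 ± 0.12), and the linker histone H1-2, from 37.1 and 33.1 to 46.7 and 55.2 CPM (0.54 ± 0.10). In the fit of all 6 libraries the calls of ANLN (adjusted p = 0.0799), LIG1 (adjusted p = 0.0732) and H1-2 (adjusted p = 0.0754) ended, and H1-2 did not pass with no filter either (adjusted p = 0.0669).

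Of 23 cyclins, CDKs and E2F factors of G1 and S, 6 rose, 3 fell and 14 did not pass (median 0.16). CDK6, a kinase that CDKN2C inhibits, was at 48.9 and 47.02 CPM in control and 93.5 and 90.9 CPM in shCBX8-1 (0.94 ± 0.06, adjusted p = 8.59e-05). CCND1, the cyclin D1 that activates it, rose from 280.3 and 273 to 477 and 416 CPM (0.69 ± 0.07, adjusted p = 0.000459). CCNA2, the cyclin of S phase and G2, rose from 63.7 and 58.5 to 86.1 and 86.05 CPM (0.49 ± 0.07, adjusted p = 0.0022), though not in the fit of all 6 libraries (adjusted p = 0.135). CCNA1, its counterpart of the germ line, was low and rose from 1.83 and 2.04 to 4.695 and 6.93 CPM (1.59 ± 0.26, adjusted p = 0.00524). So an inhibitor and its target kinase with the partner cyclin were all higher in the same libraries. Of 37 p53 targets, 8 rose, 1 fell and 28 did not pass, with a median of 0.15. The death receptor FAS rose from 29.8 and 28.1 to 49.2 and 51.3 CPM (0.79 ± 0.07, adjusted p = 0.000343) and the kinase PLK2 from 193 and 177 to 264 and 260.0 CPM (0.5 ± 0.06, adjusted p = 0.00125), while TP53I11 fell from 86.99 and 91.3 to 65.7 and 65.5 CPM (-0.44 ± 0.06). FAS (adjusted p = 0.1) and TP53I11 (adjusted p = 0.0805) did not pass in the fit of all 6 libraries.

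Tubulins are the building blocks of microtubules and stathmins destabilise them. Of 21 tested, 12 rose (57.1%), 0 fell and 9 did not pass, with a median of 0.32, and 10 stood without any 1 library. STMN3, a stathmin known best from neurons, was at 60.6 and 53.4 CPM in control and 142 and 129.5 CPM in shCBX8-1 (1.25 ± 0.08, adjusted p = 8.07e-05). STMN1 rose from 155 and 148 to 219 and 246 CPM (0.62 ± 0.07, adjusted p = 0.000857), and TUBB4B, also on the mitosis list, from 603 and 559.5 to 872 and 858 CPM (0.57 ± 0.05, adjusted p = 0.000214). TUBB2A rose from 37.4 and 33.4 to 51.01 and 54.1 CPM (0.57 ± 0.08), though not in the fit of all 6 libraries (adjusted p = 0.0717). STMN3 and TUBB3 are also on a list of 14 markers of neuronal and HEK293-type cells, of which 4 rose, 0 fell, 7 did not pass and 3 were at 0, with a summed level of 496.7 and 481.9 CPM in control and 726.0 and 687.7 CPM in shCBX8-1. Tubulin genes are close in sequence, and reads can be assigned to the wrong member of the family.

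**Figure D5:**
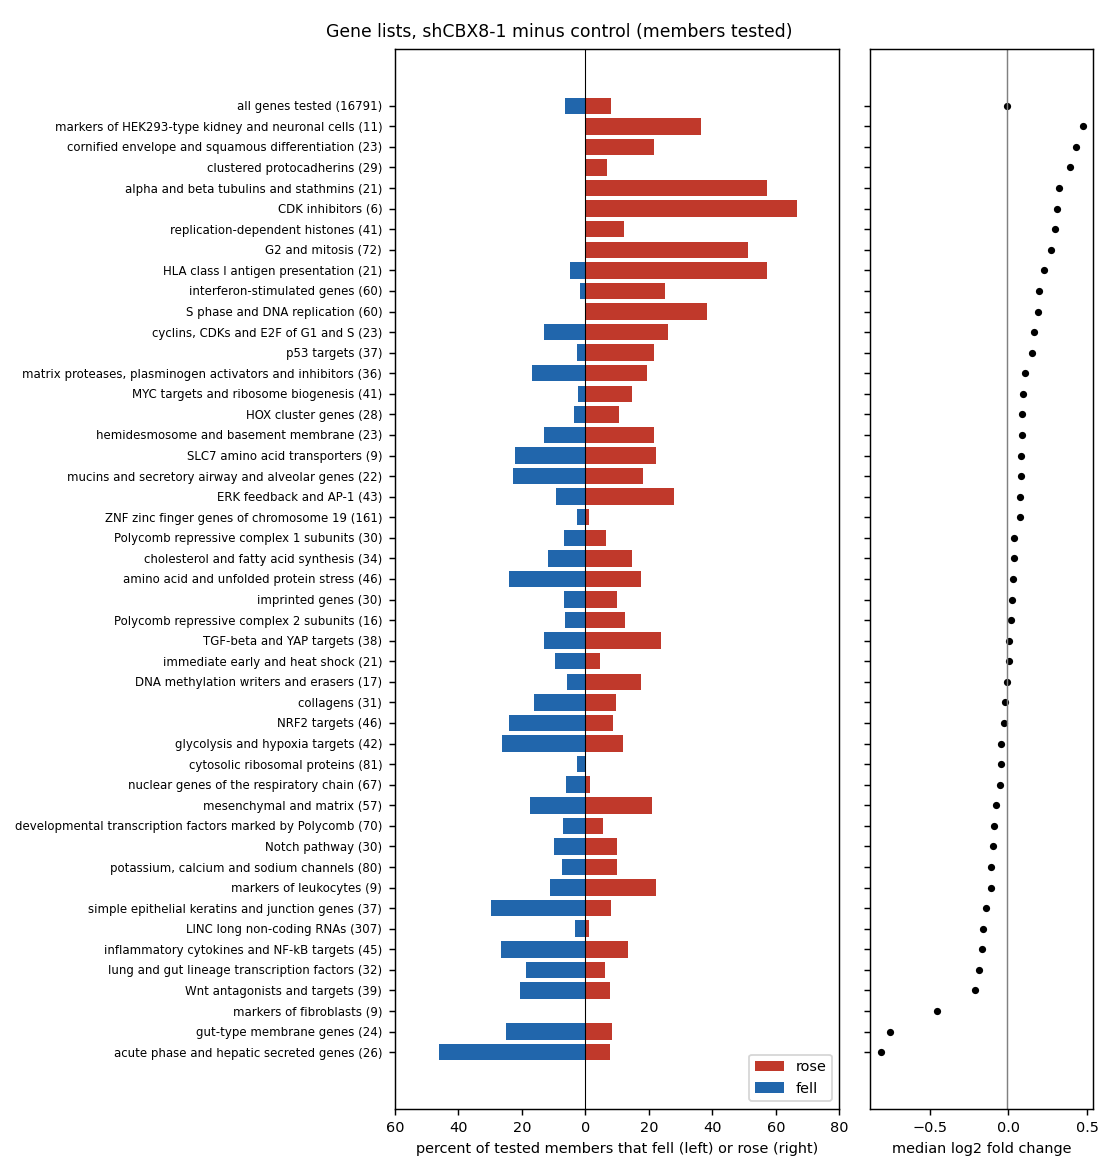
For each gene list with enough members tested (number in parentheses), the percent of members that rose (red, right) or fell (blue, left) and, in the right panel, the median log2 fold change, with all 16791 genes tested in the top row. Mitosis, S phase and tubulin lists have 0 members that fell, and the acute phase list has the lowest median, -0.81.

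SCEL belongs to a list of 44 genes of the cornified envelope and squamous differentiation, of which 23 were tested. Of these 23, 5 rose, 0 fell and 18 did not pass, with a median of 0.43. SFN, the stratifin adaptor protein of squamous epithelia, was at 462 and 416 CPM in control and 651 and 635 CPM in shCBX8-1 (0.55 ± 0.06, adjusted p = 0.000583). KRT4, a keratin of moist stratified epithelia, rose from 5.299 and 5.23 to 10.4 and 10.5 CPM (1.0 ± 0.15, adjusted p = 0.00333). KLK10, a kallikrein-related peptidase, rose from 1.03 and 0.701 to 3.29 and 3.203 CPM (1.9 ± 0.32, adjusted p = 0.00619), though not in the fit of all 6 libraries (adjusted p = 0.0626). Among simple epithelial keratins and junction genes 3 of 37 rose and 11 fell (median -0.14). CDH1, the E-cadherin of epithelial junctions, was at 19.7 and 22.2 CPM in control and 11.6 and 10.6 CPM in shCBX8-1 (-0.92 ± 0.12, adjusted p = 0.00177), and the gut keratin KRT20 was low and fell from 2.58 and 2.96 to 0.814 and 0.495 CPM (-2.08 ± 0.37, adjusted p = 0.00772). KRT19 and CLDN2, given above, are the extremes of this list in either direction. Repeated accessions held 50.7% of the KRT20 counts.

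Of 23 hemidesmosome and basement membrane genes, 5 rose, 3 fell and 15 did not pass (median 0.09). ITGB4, the integrin subunit that anchors epithelial cells to laminin in hemidesmosomes, was at 368 and 374 CPM in control and 671 and 638 CPM in shCBX8-1 (0.82 ± 0.05, adjusted p = 5.88e-05), and the laminin-binding integrin ITGA3 at 485 and 501 CPM in control and 792 and 754 CPM in shCBX8-1 (0.65 ± 0.04, adjusted p = 0.000113). COL4A6, a basement membrane collagen chain, fell from 24.9 and 27.3 to 12.1 and 13.7 CPM (-1.02 ± 0.11, adjusted p = 0.000737). Of 57 mesenchymal and matrix genes 12 rose and 10 fell, with a median of -0.08. NT5E, the ectonucleotidase CD73, was at 31.8 and 32.3 CPM in control and 62.8 and 60.8 CPM in shCBX8-1 (0.95 ± 0.06, adjusted p = 0.0001), whereas FBN2, a fibrillin of the microfibrils, was at 27.6 and 23.5 CPM in control and 8.89 and 5.72 CPM in shCBX8-1 (-1.81 ± 0.19, adjusted p = 0.000737). Of 36 matrix proteases, plasminogen activators and inhibitors, 7 rose and 6 fell (median 0.11). PLAU, the urokinase that activates plasminogen, was at 143 and 129.5 CPM in control and 305 and 284 CPM in shCBX8-1 (1.11 ± 0.07, adjusted p = 7.01e-05), and MMP7, the matrilysin of glandular epithelium, was at 93.04 and 92 CPM in control and 39.6 and 41.5 CPM in shCBX8-1 (-1.19 ± 0.06, adjusted p = 4.31e-05). Of the 31 collagens tested 3 rose and 5 fell (median -0.02).

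Of 26 acute phase and hepatic secreted genes, 2 rose, 12 fell and 12 did not pass, with a median of -0.81, the lowest of the lists. Only 6 of the 14 calls stood without any 1 library, SERPINA3 and FGL1 among them. C3, the central component of complement, was at 96.7 and 117 CPM in control and 52.2 and 54.8 CPM in shCBX8-1 (-1.0 ± 0.09, adjusted p = 0.000364). Of 24 gut-type membrane genes, 2 rose, 6 fell and 16 did not pass, with a median of -0.75; CLDN2 and TM4SF20 fell and ANPEP rose. ALPG, a phosphatase of the placental type on this list, fell from 2.53 and 3.78 to 0.7198 and 0.619 CPM (-2.23 ± 0.35, adjusted p = 0.00428), though not in the fit of all 6 libraries (adjusted p = 0.0717). ALPG has close paralogues and its estimate may share reads with them. Among 22 mucins and secretory airway and alveolar genes 4 rose and 5 fell. The gel-forming mucin MUC5AC was at 54.7 and 59.9 CPM in control and 24.3 and 23.02 CPM in shCBX8-1 (-1.28 ± 0.08, adjusted p = 6.99e-05) and the membrane mucin MUC3A at 17.2 and 14.4 CPM in control and 8.89 and 8.35 CPM in shCBX8-1 (-0.88 ± 0.14, adjusted p = 0.00444), against the rise of MUC16. TPPP3, a tubulin-binding protein of ciliated cells, fell from 27.1 and 30.5 to 15.6 and 16.2 CPM (-0.85 ± 0.10, adjusted p = 0.00114). The median of the mucin list was 0.08 and 0.25 without repeated accessions.

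Lineage transcription factors of lung and gut showed 2 of 32 that rose and 6 that fell (median -0.18). GATA3 was at 9.66 and 10.02 CPM in control and 5.29 and 3.87 CPM in shCBX8-1 (-1.1 ± 0.19, adjusted p = 0.00651), and did not pass with no filter on low counts (adjusted p = 0.0519). CEBPB, a bZIP factor of acute phase and stress genes, was at 61.3 and 52.6 CPM in control and 32.2 and 18.7 CPM in shCBX8-1 (-1.16 ± 0.20, adjusted p = 0.00755), with control libraries closer together than the knockdown ones. CEBPD, its relative, was at 54.2 and 54.98 CPM in control and 36.4 and 39.7 CPM in shCBX8-1 (-0.52 ± 0.07, adjusted p = 0.0021). Neither CEBPB (adjusted p = 0.243) nor CEBPD (adjusted p = 0.498) passed in the fit of all 6 libraries, and CEBPB did not with no filter (adjusted p = 0.0863).

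Of 45 inflammatory cytokines and NF-kB targets, 6 rose, 12 fell and 27 did not pass, with a median of -0.17, and 13 calls stood without any 1 library. PTGS2, the inducible cyclooxygenase, was at 33.2 and 41.9 CPM in control and 14.2 and 14.9 CPM in shCBX8-1 (-1.37 ± 0.12, adjusted p = 0.000294), and the neutrophil chemokine CXCL8 at 17.1 and 20.3 CPM in control and 7.34 and 7.52 CPM in shCBX8-1 (-1.33 ± 0.13, adjusted p = 0.000522). Neither PTGS2 (adjusted p = 0.058) nor CXCL8 (adjusted p = 0.0717) passed in the fit of all 6 libraries. Of 60 interferon-stimulated genes, 15 rose, 1 fell and 44 did not pass, a share of 26.7% called beside 14.4% of all genes, with a median of 0.19. IFI44L was at 0.43 and 0.884 CPM in control and 3.16 and 2.77 CPM in shCBX8-1 (2.17 ± 0.40, adjusted p = 0.0092), IFI44 at 1.86 and 1.799 CPM in control and 7.54 and 4.86 CPM in shCBX8-1 (1.76 ± 0.26, adjusted p = 0.00357). SAMD9, an antiviral factor, rose from 13.7 and 9.26 to 24.04 and 23.7 CPM (1.05 ± 0.17), and the guanylate-binding protein GBP2 fell from 8.82 and 9.29 to 3.96 and 4.93 CPM (-1.02 ± 0.18). In the fit of all 6 libraries these 4 calls ended, with adjusted p from 0.0624 for IFI44L to 0.0792 for IFI44, and IFI44L and SAMD9 did not pass with no filter (0.0596 and 0.06).

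Class I antigen presentation had 12 of 21 genes that rose and 1 that fell, with a median of 0.23, but only 4 calls stood without any 1 library. HLA-B, a heavy chain that presents peptides to CD8 T cells, was at 93.3 and 98.8 CPM in control and 173 and 173 CPM in shCBX8-1 (0.85 ± 0.06, adjusted p = 0.00012). The immunoproteasome subunits PSMB8 and PSMB9 rose from 35.5 and 39.1 to 53.1 and 59.6 CPM (0.6 ± 0.08) and from 21.4 and 21.3 to 31.6 and 33.8 CPM (0.61 ± 0.08). These genes lie in the major histocompatibility complex, which the reference holds in several copies, and repeated accessions made up 99.4% of the HLA-B, 95.1% of the PSMB8 and 89.5% of the PSMB9 counts. Without them HLA-B was not tested, and PSMB8 (log2 fold change 0.48, adjusted p = 0.279) and PSMB9 (0.54, adjusted p = 0.254) kept their direction but did not pass. PSMB8 did not pass in the fit of all 6 libraries either (adjusted p = 0.0614).

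Growth factor signalling through ERK raises its own feedback genes and AP-1 factors. Of 43 such genes, 12 rose, 4 fell and 27 did not pass, with a median of 0.08 and 8 calls that stood without any 1 library. FOSL1, the AP-1 subunit FRA1, was at 41.7 and 38.6 CPM in control and 94.9 and 79.5 CPM in shCBX8-1 (1.12 ± 0.09, adjusted p = 0.000204), and TGFA, a ligand of the EGF receptor, at 5.62 and 5.17 CPM in control and 12.3 and 12.4 CPM in shCBX8-1 (1.2 ± 0.14, adjusted p = 0.00123). TGF-beta and YAP targets had 9 of 38 that rose and 5 that fell (median 0.01). PMEPA1, a TGF-beta target that restrains its receptor pathway, was at 144 and 136 CPM in control and 48.95 and 50.1 CPM in shCBX8-1 (-1.5 ± 0.06, adjusted p = 1.68e-05), and BAMBI, a decoy receptor of the same pathway, at 22.4 and 26.2 CPM in control and 13.6 and 13.8 CPM in shCBX8-1 (-0.83 ± 0.11, adjusted p = 0.0022). ID2, an inhibitor of helix-loop-helix factors, rose from 31.4 and 32.2 to 51 and 56.2 CPM (0.75 ± 0.07, adjusted p = 0.000501). The Notch list had 3 of 30 that rose and 3 that fell (median -0.10); the receptor NOTCH1 was at 43.2 and 43.9 CPM in control and 72.05 and 71.7 CPM in shCBX8-1 (0.72 ± 0.06, adjusted p = 0.000204). Wnt antagonists and targets had 3 of 39 that rose and 8 that fell (median -0.21), among them KREMEN1, a receptor for the antagonist DKK1, from 34.5 and 39.7 to 20.1 and 20.2 CPM (-0.88 ± 0.09). BAMBI (adjusted p = 0.0946) and KREMEN1 (adjusted p = 0.0563) did not pass in the fit of all 6 libraries.

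A549 cells are known for high activity of the oxidative stress factor NRF2, and of 46 NRF2 targets 4 rose, 11 fell and 31 did not pass, with a median of -0.03. ALDH3A1, an aldehyde dehydrogenase among the most abundant transcripts here, was at 4882 and 4936 CPM in control and 2698 and 2726 CPM in shCBX8-1 (-0.86 ± 0.02, adjusted p = 1.86e-06). The aldo-keto reductase AKR1C1 fell from 655 and 713 to 456 and 515 CPM (-0.49 ± 0.07, adjusted p = 0.00205); its paralogues are close in sequence. The heme oxygenase HMOX1 fell from 151 and 144 to 96.1 and 110.0 CPM (-0.52 ± 0.08, adjusted p = 0.00314). Of 42 glycolysis and hypoxia targets, 5 rose and 11 fell (median -0.04). The glucose transporter SLC2A1 was at 323 and 323 CPM in control and 510.1 and 494 CPM in shCBX8-1 (0.64 ± 0.05, adjusted p = 0.000129), whereas the hypoxia targets P4HA2, a prolyl hydroxylase of collagen (-0.66 ± 0.07), EGLN3, an oxygen-sensing prolyl hydroxylase (-0.71 ± 0.12), and MXI1, a MYC antagonist (-0.7 ± 0.10), fell. MXI1 did not pass in the fit of all 6 libraries (adjusted p = 0.109).

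In lipid synthesis 5 of 34 genes rose and 4 fell (median 0.03). ACLY, the enzyme that makes cytosolic acetyl-CoA from citrate, was at 531 and 525 CPM in control and 851 and 846 CPM in shCBX8-1 (0.68 ± 0.04, adjusted p = 6.14e-05), and the fatty acid desaturase SCD at 1438 and 1479 CPM in control and 932 and 958 CPM in shCBX8-1 (-0.63 ± 0.04, adjusted p = 6.14e-05). The former rose and the latter fell. HMGCS1, of the cholesterol branch, rose from 117 and 105 to 146 and 152 CPM (0.43 ± 0.07), though not in the fit of all 6 libraries (adjusted p = 0.188). IDH1, the cytosolic isocitrate dehydrogenase listed among writers and erasers of DNA methylation for its oxoglutarate product, fell from 257 and 264 to 156 and 168 CPM (-0.69 ± 0.06, adjusted p = 0.000282). On that list 3 of 17 rose and 1 fell, and of 21 immediate early and heat shock genes 1 rose and 2 fell. Genes of amino acid and unfolded protein stress had 8 of 46 that rose and 11 that fell (median 0.03). ATF5, a bZIP factor of the stress response, rose from 29.1 and 29.5 to 43.6 and 44.1 CPM (0.58 ± 0.07), while NUPR1 fell from 22.02 and 21.2 to 12.4 and 10.4 CPM (-0.92 ± 0.12) and the peptide hormone gene ADM2 from 3.41 and 5.41 to 0.814 and 1.18 CPM (-2.15 ± 0.34). Of 9 SLC7 amino acid transporters 2 rose and 2 fell (median 0.08). SLC7A7 was at 11.7 and 14.8 CPM in control and 4.49 and 3.84 CPM in shCBX8-1 (-1.67 ± 0.17, adjusted p = 0.000649) and the cationic transporter SLC7A2 at 20.3 and 25.4 CPM in control and 10.2 and 9.56 CPM in shCBX8-1 (-1.21 ± 0.13), whereas the large neutral transporter SLC7A5 rose from 3549 and 3309 to 4376 and 4100 CPM (0.31 ± 0.04), though not in the fit of all 6 libraries (adjusted p = 0.0811).

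Ribosomal and respiratory genes held few calls, 2.47% and 7.46% beside 14.4% of all genes. Of 81 cytosolic ribosomal proteins 0 rose and 2 fell (median -0.05), and of 67 nuclear genes of the respiratory chain 1 rose and 4 fell (median -0.06). The exception was COX7C, a small subunit of cytochrome c oxidase, at 77.05 and 75.97 CPM in control and 135 and 140.5 CPM in shCBX8-1 (0.85 ± 0.06, adjusted p = 0.00012). Of 41 MYC targets and ribosome biogenesis genes 6 rose and 1 fell (median 0.10), among them DKC1, the pseudouridine synthase dyskerin, from 192 and 183 to 252 and 265 CPM (0.46 ± 0.06), and RRP1B, a nucleolar factor, from 83.5 and 85.5 to 67.04 and 60.1 CPM (-0.41 ± 0.07), the latter not in the fit of all 6 libraries (adjusted p = 0.0622).

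Developmental genes that Polycomb is known to silence did not stand out by count beside all genes, a comparison not matched for level. The list held 114 developmental transcription factors, of which 70 were tested and 29 had 0 counts in all 4 libraries. Of the 70 tested, 4 rose, 5 fell and 61 did not pass, a share of 12.9% beside 14.4% of all genes, with a median of -0.09. Members that stayed silent or too low to test are not in these counts. The summed level of the 70 was 582.0 and 595.6 CPM in control. Calls were rarer at low level: in the level bin next to the lowest 3.75% rose and 6.22% fell. PAX2, a factor of kidney development, was at 2.92 and 3.19 CPM in control and 7.09 and 6.64 CPM in shCBX8-1 (1.17 ± 0.19, adjusted p = 0.00524). Of 28 HOX cluster genes 3 rose and 1 fell (median 0.09), among them HOXB6, from 26.1 and 28.2 to 42.2 and 38.1 CPM (0.57 ± 0.08), and HOXB7, from 35.7 and 38.4 to 48.1 and 48.7 CPM (0.38 ± 0.07), neither of which passed in the fit of all 6 libraries (adjusted p = 0.056 and 0.106). Of 29 clustered protocadherins 2 rose and 0 fell (median 0.39), and neither call stood without any 1 library. Of 30 imprinted genes 3 rose and 2 fell (median 0.02). H19, a maternally expressed long non-coding RNA, was at 11.5 and 10.3 CPM in control and 46.8 and 51.7 CPM in shCBX8-1 (2.17 ± 0.09, adjusted p = 1.68e-05). PHLDA2, maternally expressed and in the same chromosome region, rose from 28.04 and 27.9 to 58.6 and 53.5 CPM (1.0 ± 0.07, adjusted p = 0.000136), with 49.6% of its counts on repeated accessions. SNRPN, paternally expressed, was at 92.1 and 90.99 CPM in control and 42.2 and 55.4 CPM in shCBX8-1 (-0.91 ± 0.11, adjusted p = 0.00141), and GRB10 fell from 39.9 and 36.8 to 26.6 and 23.9 CPM (-0.6 ± 0.09, adjusted p = 0.00303).

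Large gene families differed in their share of calls, which was 3.73% of zinc finger genes of chromosome 19, 17.5% of channel genes and 4.56% of LINC RNAs, beside 14.4% of all genes. Neither these families nor the long non-coding RNAs below were matched for level, and what level contributes was not tested. In the lowest of the 5 level bins 0.774% of genes rose and 1.43% fell, and in the next 3.75% and 6.22%. Of 161 ZNF zinc finger genes on chromosome 19, 2 rose and 4 fell (median 0.07). Of 80 potassium, calcium and sodium channel genes 8 rose and 6 fell (median -0.11), among them KCNQ3, from 1.83 and 1.86 to 4.58 and 5.11 CPM (1.39 ± 0.23, adjusted p = 0.00568). Of 307 LINC long non-coding RNAs tested 4 rose and 10 fell (median -0.16), while 1184 of the 1768 counted were at 0 in all 4 libraries. Of all 1581 long non-coding RNAs tested 28 rose (1.77%) and 45 fell (2.85%), beside 1295 (9.04%) and 1023 (7.14%) of 14333 protein-coding genes.

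Genes at 0 in both libraries of 1 group and with at least 10 counts in each library of the other numbered 18 that were higher in shCBX8-1, of which 14 passed, and 38 that were lower, of which 28 passed. Of all genes tested 14.4% passed, but these were picked by the same counts, so their high share follows from the choice. Against a floor of 3 counts over the group at 0, which covers counting error only, genes of this set were at least 7.33-fold to 22.98-fold higher and at least 7.68-fold to 155-fold lower. The last of these is SGK3, the readthrough case above, and apart from it no call in this set stood without any 1 library.

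Markers of other cell types were read as whole lists. Of 19 leukocyte markers 14 stayed under 1 CPM in every library and 5 were at 0, among them CD3D, CD3E, MS4A1 and TYROBP. Their summed level was 99.99 and 104.0 CPM in control and 151.5 and 147.9 CPM in shCBX8-1, and of the 9 tested 2 rose, 1 fell and 6 did not pass. CD68, a lysosomal protein, rose from 81.8 and 86.9 to 124 and 119.5 CPM (0.53 ± 0.06), and CORO1A, an actin regulator, rose from 8.57 and 7.15 to 19.97 and 20.3 CPM (1.36 ± 0.13). CD14, a co-receptor for lipopolysaccharide, fell from 4.49 and 4.74 to 2.47 and 2.55 CPM (-0.88 ± 0.22, adjusted p = 0.0301), a call that ended on leaving out each library in turn (adjusted p from 0.0789 to 0.131). Of 12 fibroblast and 10 endothelial markers 9 and 4 were high enough to be tested and 0 passed, and COL1A2, DCN, KDR, TEK, TIE1 and EMCN were at 0. Of 14 genes that mark neuronal cells and kidney cells of the HEK293 type, the kind in which lentivirus is often packaged, STMN2, GAP43 and ELAVL4 were at 0, and 4 rose: STMN3 and PAX2, given above, TUBB3, the neuronal beta-tubulin, from 305 and 299.7 to 424 and 414 CPM (0.47 ± 0.05), and the neurofilament NEFL, from 38.5 and 41.99 to 57.1 and 55.3 CPM (0.48 ± 0.07), the last not in the fit of all 6 libraries (adjusted p = 0.0687). The other 7 members, NEFM, NEFH, INA, LHX1, ELAVL3, CHGA and SYP, did not pass. INA had 4853 and 4460 counts in control and 4907 and 4299 in shCBX8-1, and LHX1 351 and 380 against 402 and 346. The part of other cells in the genes of this list, STMN3 and TUBB3 on the tubulin list included, was not tested. All 10 markers of A549 epithelium were above 1 CPM in every library, and of these KRT8, KRT18, CDH1, AKR1C1 and ALDH3A1 fell, NQO1 rose and 4 did not pass. Fewer cells that express a gene and less RNA per cell cannot be told apart in bulk RNA.

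Between the hairpins, 1681 of 17115 genes differed (9.82%), 693 higher in shCBX8-2 (4.05%) and 988 lower (5.77%). CBX8 was higher in shCBX8-2 by 1.02 ± 0.15 on the log2 scale (adjusted p = 0.0115) and was thus lowest with shCBX8-1. CDKN2C (0.22 ± 0.10, adjusted p = 0.218) and SCEL (0.49 ± 0.16, adjusted p = 0.11) did not differ past the threshold. The count rests on single libraries: it was 126 and 144 without shCBX8-1 replicate 1 or 2, 615 and 618 without control replicate 1 or 2, and 2858 and 5104 without shCBX8-2 replicate 1 or 2.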

How the data were processed

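The 6 libraries were grouped by their titles, and columns were matched to samples by name. The deposited table holds the authors' expected counts, that is estimated counts per RefSeq transcript, all whole numbers and not scaled. HISAT2 2.2.1, StringTie 2.2.1, DESeq2 1.34.0 and build hg38 are named in the submitters' processing notes; what each did, the annotation and how counts were made is not given in the sources used here. Of 84787 transcripts, 99.45% were matched to a gene (83963 by RefSeq GRCh38.p14, 357 by GENCODE) and summed per symbol to 28452 genes; the 467 unmatched stayed as entries of their own. Rows with a repeated accession (12094) held 2.89% to 3.15% of the counts of the 4 libraries.

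The 4 libraries of control and shCBX8-1 were fitted alone in R 4.3.3 with edgeR 4.0.16 (filterByExpr, minimum count 10 and minimum total 15, TMM scaling, quasi-likelihood F test, two-sided, Benjamini-Hochberg over all genes, threshold 0.05, no minimum fold), with 2 residual degrees of freedom and a common dispersion of 0.0182 (a biological coefficient of variation of 13.5%). The test moderates the spread of each gene toward that of all genes, with a median of 6.63 prior degrees of freedom. Standard errors were derived from the F statistic. The difference between hairpins was a contrast in a fit of all 6 libraries. The code was tested on simulated data. Alternatives were DESeq2 1.42.0 size factors and Wald test, other filters, a 2-fold minimum, each library left out, the replicate number as a block, all 6 libraries, no repeated accessions, no abundance trend and, chosen after seeing the data, readthrough genes summed with their partners.

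The comparison and the lists were chosen with earlier results of these data known. Named by rule were CBX8, CDKN2C, SCEL, CBX paralogues, BMI1, RING1, RNF2, EZH1, EZH2 and CDK inhibitors; the 15 highest and 15 lowest folds among genes that passed (mean of at least 1 CPM, repeated accessions under 50% of counts); the 5 lowest p in each direction at a mean of at least 50 CPM; up to 4 members per list; and genes at 0 in 1 group. Of 252 genes so named, the 131 described are the fixed ones and those whose call stood without any 1 library, a limit set after their values were seen; 1 of them is not reported here. Other members are named where a marker list is given whole.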

Additional observations from a re-analysis of the deposited data

Results flagged for a closer look

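The genes described were also compared between the hairpins, shCBX8-2 minus shCBX8-1, in the fit of all 6 libraries. Of 131 such genes 62 differed (adjusted p from 2.93e-05 for MUC5AC to 0.0495 for CCND1), beside 9.82% of all genes. Most were chosen for a large change in shCBX8-1, so the difference is not independent of the choice, and in 50 of the 62 it ran against the change in shCBX8-1. In 29 of these 50 the estimate for shCBX8-2 lay on the other side of control, though not always far from it. Log2 fold changes over control were 2.38 for MUC5AC, 1.25 for C3, -1.68 for INSYN2B, -1.54 for PAX2, -1.03 for NEFL and -0.97 for PSMB9. Others of the 29 were close to control, such as TGFA (-0.0057), MUC3A (0.016), HOXB6 (-0.0205), TMED10 (0.0402) and FAS (-0.0503). ARPC4-TTLL3 and SGK3, uncertain for their readthrough partners, are also among the 29. In the other 21 of the 50 shCBX8-2 lay on the side of shCBX8-1, nearer to control. Whether shCBX8-2 differed from control was not tested here, and both fold changes rest on the same control libraries. Other values are log2 differences, positive where shCBX8-2 was higher.

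Among genes that had fallen in shCBX8-1, those that were higher in shCBX8-2 differed by 3.69 for SERPINA3, 3.66 for MUC5AC, 3.66 for MAPK4, 2.24 for C3, 1.83 for FGL1, 1.16 for CLDN2, 0.90 for MMP7, 0.89 for MUC3A and 0.74 for CDH1. Further differences were 1.81 for TMED10, 1.41 for BAMBI, 1.248 for PMEPA1, 1.21 for EGLN3, 1.02 for CBX8, 0.82 for SNRPN, 0.73 for TPPP3, 0.59 for ALDH3A1, 0.55 for P4HA2 and 0.53 for RRP1B. SGK3, uncertain for its readthrough partner, differed by 11.52. A further group lay lower still in shCBX8-2, with differences of -1.31 for HMOX1, -1.06 for TM4SF20, -0.98 for SLC7A7 and -0.83 for NUPR1.

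Among genes that had risen in shCBX8-1, the hairpins differed by -3.96 for INSYN2B, -2.80 for KRT19, -2.71 for PAX2, -2.41 for UNC13A, -1.86 for KCNQ3, -1.52 for NEFL, -1.35 for LY6K, -1.2 for TGFA and -0.90 for STMN3. Immune genes differed by -1.83 for IFI44, -1.58 for PSMB9, -1.35 for HLA-B, -1.16 for PSMB8, -0.84 for FAS and -0.33 for CD68. Cell cycle genes and histones differed by -1.04 for H2AC6, -0.76 for H1-2, -0.75 for PLK2, -0.60 for CDKN1A, -0.49 for CDK6 and -0.40 for CCND1. Other genes differed by -0.94 for HMGCS1, -0.92 for ID2, -0.88 for ACLY, -0.72 for UPK3B, -0.62 for PLAU, -0.59 for HOXB6, -0.51 for NT5E and -0.45 for FOSL1, and the readthrough gene ARPC4-TTLL3 by -11.20. Higher still in shCBX8-2 were H19 by 1.88, CCNA1 by 1.42, ITGB4 by 0.80, ITGA3 by 0.56, SFN by 0.55, TUBB4B by 0.36 and SLC2A1 by 0.33. CBX2, which did not pass in shCBX8-1, was higher in shCBX8-2 by 0.57.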

How the results depend on the processing

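The log2 fold changes of CBX8, CDKN2C and SCEL kept their sign and passed in every alternative run without a minimum fold, with ranges on leaving out 1 library of -1.76 to -1.67, 0.83 to 0.89 and 1.08 to 1.44. The count of genes called, 2426, was 939 with no filter on low counts, 423 in the fit of all 6 libraries, 336 with a minimum of 2-fold, which CDKN2C did not reach, and 1192 to 1436 on leaving out 1 library. The last of these fits have fewer samples, and for the others the cause was not tested. It stayed within 1.5 times under DESeq2 size factors, the DESeq2 Wald test, the other filters and the summed readthrough genes. The count between hairpins, 1681, was 2956 by the DESeq2 Wald test, 573 with a minimum of 2-fold, 638 in a fit of the 4 knockdown libraries and 126 to 5104 on leaving out 1 library. With the replicate number as a block the counts were 2726 and 1082, and CBX8, CDKN2C and SCEL had -1.71, 0.86 and 1.26. Deviations of same-numbered libraries from their group means had a correlation of -0.011 across genes. With 2 libraries per group the deviations mirror each other, so this is 1 value. It cannot settle whether a number pairs samples, which the labels do not state. Of the 131 genes described, none of the 122 that passed changed sign, while CBX6 and RING1, which did not pass, did so on leaving out single libraries; 36 calls ended in the fit of all 6 libraries, 12 with no filter, 2 without repeated accessions and 1 or 2 in each fit that left out 1 library. Depth was even across libraries, and genes at 0 in a group have lower bounds of fold only.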

Other observations

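By chromosome, median log2 fold changes lay between -0.07 and 0.02. Decreases were most frequent on chromosomes 22 (12.2% of 433 genes) and 20 (11.4% of 464), beside 6.52% of all genes, and increases on chromosomes 8 (10.3% of 595) and 11 (10.0% of 916), beside 7.93%. Neither share was tested.

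Across 15378 genes with a GENCODE transcript (91.6% of those tested), Spearman's rho of the fold change with GC content was -0.037 and with transcript length 0.016. The difference between replicates, on log2 of CPM plus 0.1, had a rho with GC content of 0.099 in control and -0.14 in shCBX8-1. These are correlations across genes, which are not independent replicates.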
